A study of Mus musculus with 8 samples.

Results

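The gamma crystallins are a family of 8 mouse genes in these data, Cryga, Crygb, Crygc, Crygd, Cryge, Crygf, Crygs and Crygn, out of 31053 gene identifiers in the count tables. They were taken by symbol, and the family was chosen because its counts differed between genotypes in these same libraries, so its differences between Bbs8+/+ and Bbs8-/- are given as a description with no test. Summed over the 8 genes, the family stood at 21.2 ± 4.37 normalised counts per 1000000 counts (CPM; SD, n = 4) in Bbs8+/+ eyecups and at 307 ± 17.6 CPM (SD, n = 4) in Bbs8-/- eyecups, which is 14.5 times the control level. Throughout, a value after ± is the SD over the 4 libraries of a genotype, and it measures spread between libraries, which need not be spread between single animals. All 8 members were higher in every Bbs8-/- library than in any Bbs8+/+ library, as were 3.62% of all tested genes, and since the family was chosen on this contrast nothing is read from that count. The 6 closely related genes Cryga to Crygf were 13.3 to 36.5 times higher, while Crygs was 5.58 times and Crygn 2.25 times higher. Of the lens fibre genes that are not crystallins, the water channel gene Mip was 1.23 times and the beaded filament gene Bfsp1 1.89 times as high in Bbs8-/-. The sum of 14 such genes was 1.16 times as high, and much of it came from Caprin2 and Tdrd7, which are not lens-restricted. The lens-restricted Mip, Lim2, Bfsp1 and Bfsp2, chosen after their values were seen, summed to 1.41 times the control level without overlap. Of the 14, 6 were tested and none passed a false discovery rate of 0.05. Among all tested genes 1.1% were higher and 1.14% lower, so 0 of 6 is near the background.

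Gamma crystallins are small, monomeric proteins built from Greek key folds, and they fill the cytoplasm of lens fibre cells at very high concentration, where their short-range packing gives the lens its transparency and refractive power. Their genes are switched on as lens epithelial cells differentiate into fibre cells, and mutations in several of them cause cataract. Cryga to Crygf arose by duplication of neighbouring genes. Crygs is more distant and remains active in the cortex of the older lens, and Crygn is intermediate between the beta and gamma branches of the family and has also been described in retina.

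Libraries came from eyecups of C57/Bl6 mice at postnatal day 11, 4 wild type (Bbs8+/+, the controls) and 4 Bbs8 knockout (Bbs8-/-) littermates, described as 1 animal per replicate, and neither genotype received a treatment. Bbs8, also named Ttc8, encodes a subunit of the BBSome, a complex that carries cargo in and out of primary cilia, and the deletion was present in the whole animal, not in the retinal pigment epithelium (RPE) alone. The labels call the source retinal pigment epithelial eye cups and the study also speaks of RPE specimens, while its RNA protocol homogenized eyecups without peeling off the RPE. The eyecup is what remained after muscle, fat, cornea, lens, retina and optic nerve had been dissected away, so it holds RPE, choroid and sclera, and the lens is a tissue that should be absent. RNA was read as a short tag near the 3′ end of each transcript, hence counts do not scale with transcript length, and those of different members were compared without dividing by length.

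Library totals ranged from 1636725 to 2884983 counts in genes, so that a count of 3 corresponded to between 1.04 and 1.83 CPM. The knocked-out gene Ttc8 stood at 18.5 ± 2.95 CPM in Bbs8+/+ and 4.96 ± 3.26 CPM in Bbs8-/- libraries without overlap. Most of 12 RPE markers were abundant in all libraries. Xist (689 ± 44.2 against 588 ± 24.6 CPM) and the sum of 4 Y-linked genes (61.3 ± 2.76 against 114 ± 6.23 CPM) were both found in all 8 libraries and differed between genotypes without overlap. A single mouse ordinarily expresses only one of these sets, so the libraries go against 1 animal per library, and how many animals each holds is not known. Every SD, SE and p-value below therefore treats as 4 replicates libraries that may be mixed-sex pools, and the part of sex in the results was not tested. Across 13813 genes tested with edgeR's quasi-likelihood test and Benjamini-Hochberg adjustment, 152 (1.1%) were higher and 157 (1.14%) lower in Bbs8-/- at a false discovery rate (FDR) of 0.05. All 4 Bbs8-/- libraries lay above all 4 Bbs8+/+ libraries in 500 genes (3.62%) and below them in 519 (3.76%).

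Cryga, Crygb, Crygc, Crygd and Cryge lie head to tail on the minus strand of chromosome 1 within 54820 bases (mm10). In GENCODE M21 coordinates, Cryge occupies chr1:65048554-65051149, Crygd chr1:65061872-65063452, Crygc chr1:65071525-65073689, Crygb chr1:65080219-65082288 and Cryga chr1:65100389-65103373. Crygf lies 823147 bases further along the same chromosome on the plus strand, at chr1:65926520-65928307. Crygs is on chromosome 16 (chr16:22805203-22811577, minus strand) and Crygn on chromosome 5 (chr5:24751003-24758008, minus strand). The annotation places a further gene, Gm28845, over Cryga on the same strand, and reads that fell in both would not be assigned to either by default, and Gm28845 itself had 0 counts in all 8 libraries.

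Cryga to Crygf share short runs of sequence in front of their start sites, and whether these go with the fold changes was not tested. Of the 110 bases upstream of the RefSeq transcription start (GRCm38.p6), those outside every annotated exon are shown for the 5 genes that have any, from 5′ to 3′ on the gene's own strand. For Crygb and Cryge these are all 110 bases, up to the start. For Cryga, Crygd and Crygf the printed bases end short of the RefSeq start, since the bases next to it lie in an exon of the GENCODE annotation and are left out. Capitals mark the letters TATATA and TTTGTG, which were the only runs of 6 letters found in the whole 110 bases of all 6 genes from Cryga to Crygf, with nothing longer. The intervals are chr1:65103374-65103473 for Cryga, chr1:65082291-65082400 for Crygb, chr1:65063453-65063550 for Crygd, chr1:65051164-65051273 for Cryge (all minus strand) and chr1:65926412-65926519 for Crygf (plus strand).
Cryga: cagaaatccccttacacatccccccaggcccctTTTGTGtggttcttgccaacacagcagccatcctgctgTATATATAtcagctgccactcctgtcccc
Crygb: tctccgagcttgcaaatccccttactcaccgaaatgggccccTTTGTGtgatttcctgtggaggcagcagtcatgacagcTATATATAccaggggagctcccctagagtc
Crygd: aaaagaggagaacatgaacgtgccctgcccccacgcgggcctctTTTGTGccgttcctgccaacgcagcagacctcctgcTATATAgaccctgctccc
Cryge: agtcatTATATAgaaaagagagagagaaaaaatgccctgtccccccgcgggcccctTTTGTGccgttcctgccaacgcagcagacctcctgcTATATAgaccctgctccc
Crygf: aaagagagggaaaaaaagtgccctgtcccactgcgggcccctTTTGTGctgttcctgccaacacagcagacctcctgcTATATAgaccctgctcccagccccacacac

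In each of these 5 stretches TTTGTG is followed downstream by TATATA, Cryge has a further TATATA at the far end, and in Cryga and Crygb 2 overlapping copies of TATATA make the run TATATATA. Counting both strands over the 110 bases before the start, TATATA was found in 2.37% and TTTGTG in 6.72% of 32851 RefSeq promoters. TATATA was present in 7 of the 8 members, Crygs being without it, and TTTGTG in 6 of 8, Crygs and Crygn being without it. Since the letters were picked for being shared by Cryga to Crygf, their presence there is not a finding, and a match is a description of sequence only. The upstream stretch of Crygb was identical to those of the rest of Cryga to Crygf in 61% to 70.2% of aligned bases, beside 68.8% for Cryga and Crygn. The upstream stretches of Crygd, Cryge and Crygf were the most alike, with 90.7% to 92.7% identical aligned bases.

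The same 3 genes had the most similar transcripts. Cryge and Crygf were identical in 96.2% of aligned bases, Crygd and Cryge in 91.4% and Crygd and Crygf in 90.6%. The other pairs among Cryga to Crygf ranged from 77.6% to 81.6%, and pairs with Crygs or Crygn from 57.6% to 64.5%. Because the tables hold uniquely placed reads only, it was computed how many 100-base windows, the length of the reads, in the last 300 bases of each transcript occur without mismatch in a transcript of another gene.

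**Figure D1:**
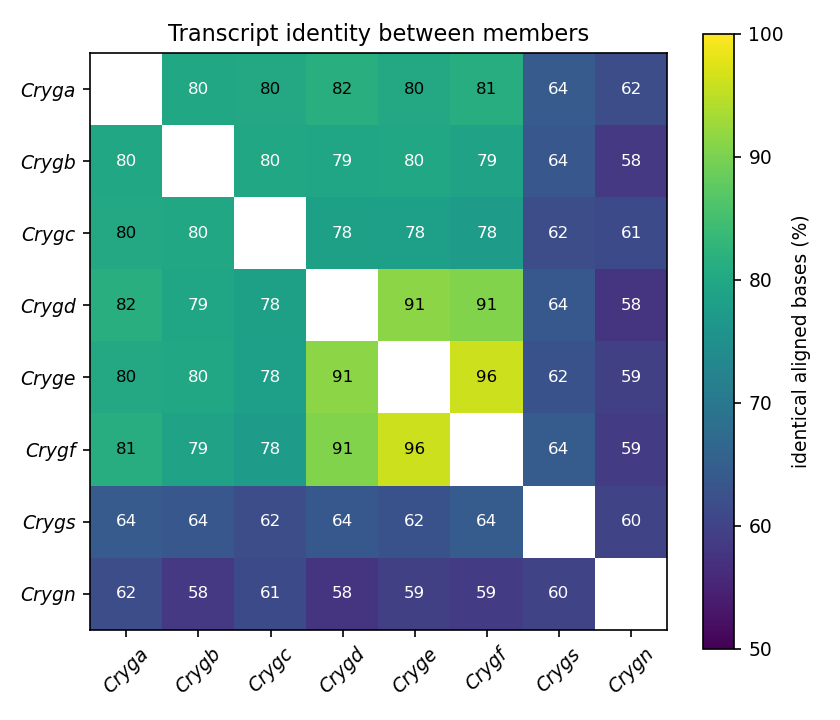
Heat map of the percentage of identical aligned bases between the transcripts of each pair of gamma crystallins, with the members on both axes and the colour scale running from 50 to 100%. Cryge and Crygf stand out at 96.2%, and the rows of Crygs and Crygn stay between 57.6% and 64.5%.

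In Cryge and Crygf, 35 of 201 windows (17.4%) matched the other gene exactly, and none of the windows of the other 6 members did. With 50-base windows the shared part was 43% for Cryge, 37.5% for Crygf, 8.37% for Cryga and 5.58% for Crygd. The windows of Cryga were shared with Gm28845, the gene annotated over it, and not with another member. Reads without a unique place are not counted in the tables, so the separate levels of Cryge and Crygf are uncertain. Reads with several places made up 25.5% to 26.6% of all alignment lines in the 8 libraries.

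Crygb was the most abundant member. It had 17, 6, 16 and 47 counts in Bbs8+/+ libraries 1 to 4 and 150, 222, 230 and 284 counts in Bbs8-/- libraries 1 to 4. Its level was 8.39 ± 5.85 CPM in the controls and 111 ± 17.5 CPM in the knockouts, with a log2 fold change of 3.68 (SE 0.18). Bbs8+/+ library 4, with 16.4 CPM, was above the other 3 controls, and without it the log2 fold change was 4.31. Even that library lay well below the lowest Bbs8-/- library, which had 91.0 CPM.

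Cryga stood against controls near the floor. It had 3, 2, 1 and 8 counts in the Bbs8+/+ libraries and 74, 80, 121 and 113 counts in the Bbs8-/- libraries. Scaled to library size, these were 1.33 ± 1.03 and 48.7 ± 6.46 CPM, and the log2 fold change was 5.06 (SE 0.30). The control level was at or under the 3-count floor in 3 of 4 libraries, so the ratio of pooled counts per effective library size, 34.7, carried an exact 95% interval of 20.4 to 64.0 for counting error. Here too, Bbs8+/+ library 4 was the highest control, and the log2 fold change was 5.74 without it.

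Crygc was the most even member. Its 6, 5, 4 and 7 counts in Bbs8+/+ stood against 74, 81, 84 and 88 counts in Bbs8-/-. The Bbs8-/- level was 41.7 ± 2.64 CPM against 2.22 ± 0.35 CPM in the controls, a log2 fold change of 4.19 (SE 0.28). The coefficient of variation among Bbs8-/- libraries was 6.34%, below the 11.0% that counting error alone gives at this depth.

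Crygd had 5, 6, 7 and 5 counts in Bbs8+/+ and 54, 78, 65 and 99 in Bbs8-/-. Its level was 2.38 ± 0.64 CPM against 37.4 ± 7.49 CPM, with a log2 fold change of 3.97 (SE 0.29). The ranges were far apart, from 1.75 to 3.27 CPM in controls and from 29.8 to 46.2 CPM in knockouts. Mutations of its human counterpart are a known cause of inherited cataract.

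Cryge and Crygf, the pair that shares the most sequence, did not follow each other from library to library. Cryge had 1, 10, 3 and 5 counts in Bbs8+/+ and 60, 69, 66 and 37 counts in Bbs8-/-. Its level was 1.88 ± 1.48 CPM against 30.0 ± 8.93 CPM and the log2 fold change 3.92 (SE 0.34), or 4.54 without Bbs8+/+ library 2, the control with 10 counts. Crygf had 3, 3, 0 and 2 counts in Bbs8+/+ and 29, 43, 51 and 56 counts in Bbs8-/-.

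Crygf therefore stood at 0.79 ± 0.59 CPM in the controls, under the floor of each library or at it, and at 22.4 ± 3.57 CPM in the knockouts. The log2 fold change of 4.70 (SE 0.41) rests on 8 control counts in all, and the pooled ratio of 28.0 had an exact 95% interval of 13.9 to 65.9. Bbs8-/- library 4 had the lowest Cryge level of its genotype, 17.3 CPM against 30.3 to 36.4 CPM in the other 3, together with the highest Crygf level, 26.2 CPM. Summed, Cryge and Crygf stood at 2.67 ± 1.69 CPM in the controls and 52.4 ± 6.36 CPM in the knockouts, a sum that reads exchanged between the 2 genes would not alter.

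The members outside the chromosome 1 group had smaller fold changes. Crygs had 4, 6, 4 and 3 counts in Bbs8+/+ and 21, 15, 23 and 17 counts in Bbs8-/-, which gave 1.75 ± 0.54 and 9.76 ± 2.35 CPM. Its log2 fold change was 2.45 (SE 0.48), and the pooled ratio of 5.59 had an exact 95% interval of 3.28 to 10.1 for counting error.

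Crygn had 7, 7, 7 and 2 counts in Bbs8+/+ and 13, 11, 9 and 9 counts in Bbs8-/-. The levels were 2.43 ± 1.18 and 5.49 ± 1.76 CPM and the log2 fold change 1.17 (SE 0.55), the smallest in the family. The highest control, at 3.27 CPM, and the lowest knockout, at 4.13 CPM, were next to each other. The pooled ratio of 2.29 had an exact 95% interval of 1.34 to 3.98 for counting error.

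**Figure D2:**
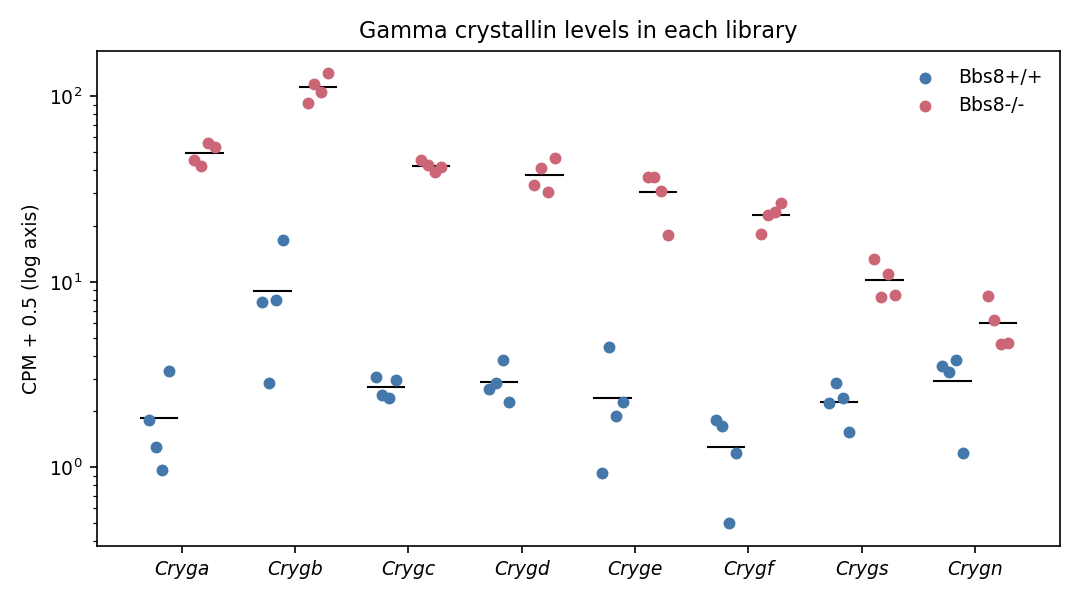
Level of each gamma crystallin in the 8 libraries, as CPM plus 0.5 on a log axis, with 1 point per library, Bbs8+/+ in blue and Bbs8-/- in red, and a black line at the genotype mean. The genotypes are far apart for Cryga to Crygf, closer for Crygs and nearly touching for Crygn, where 3.27 CPM in a control faces 4.13 CPM in a knockout.

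All 8 members passed the filter of at least 1 CPM in at least 4 libraries, but Cryga, Cryge, Crygf and Crygn did so only through the Bbs8-/- libraries, since fewer than 4 controls reached 1 CPM. Of the 8, 7 were past FDR 0.05 in the higher direction and Crygn was not, and all 8 were without overlap, beside 1.1% and 3.62% of all tested genes. The family was chosen on this contrast, so nothing is read from those counts. In a bulk eyecup library, fewer cells of a type and less RNA per cell cannot be told apart, and the same holds for more cells and more RNA per cell.

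The family's own make-up was compared as each member's share of the family count, which does not depend on library scaling. The family count was 46, 45, 42 and 79 in the Bbs8+/+ libraries and 475, 599, 649 and 703 in the Bbs8-/- libraries, so the control shares carry wide counting intervals. Crygb held the largest share in each Bbs8-/- library, with 31.6%, 37.1%, 35.4% and 40.4%. In Bbs8+/+ its share was 37.0%, 13.3%, 38.1% and 59.5%, a spread that spans all the knockout values.

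Cryga was the one member whose share was higher in every Bbs8-/- library than in any control. It made up 6.52%, 4.44%, 2.38% and 10.1% of the family in Bbs8+/+ and 15.6%, 13.4%, 18.6% and 16.1% in Bbs8-/-. The average over libraries was 5.87 ± 3.30% against 15.9 ± 2.17%, and the 95% Wilson intervals of the shares over pooled counts were 3.97 to 10.8% and 14.6 to 17.5%. Intervals of this kind cover counting error only.

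Crygs and Crygn went the other way in their pooled shares, given with 95% Wilson intervals. Crygs made up 8.02% (5.07 to 12.5%) of pooled Bbs8+/+ family counts and 3.13% (2.51 to 3.90%) of pooled Bbs8-/- counts. For Crygn the pooled shares were 10.8% (7.34 to 15.8%) and 1.73% (1.28 to 2.33%). Neither share separated the genotypes in every library, since Bbs8+/+ library 4 had 3.80% Crygs and 2.53% Crygn, within the Bbs8-/- ranges of 2.42 to 4.42% and 1.28 to 2.74%.

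The remaining shares overlapped between genotypes. Averaged over libraries, Crygc held 10.6 ± 1.86% in Bbs8+/+ and 13.6 ± 1.36% in Bbs8-/-, Crygd 11.8 ± 4.35% and 12.1 ± 1.79%, Cryge 9.47 ± 8.78% and 9.90 ± 3.25%, and Crygf 3.93 ± 3.25% and 7.28 ± 0.86%. The widest of these was Cryge in controls, from 2.17% to 22.2%, and without Bbs8+/+ library 2 its control share averaged 5.21%. In Bbs8-/- library 4 the Cryge share was 5.26% (95% Wilson interval 3.84 to 7.17%), below the 10.2 to 12.6% of the other 3 knockouts.

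**Figure D3:**
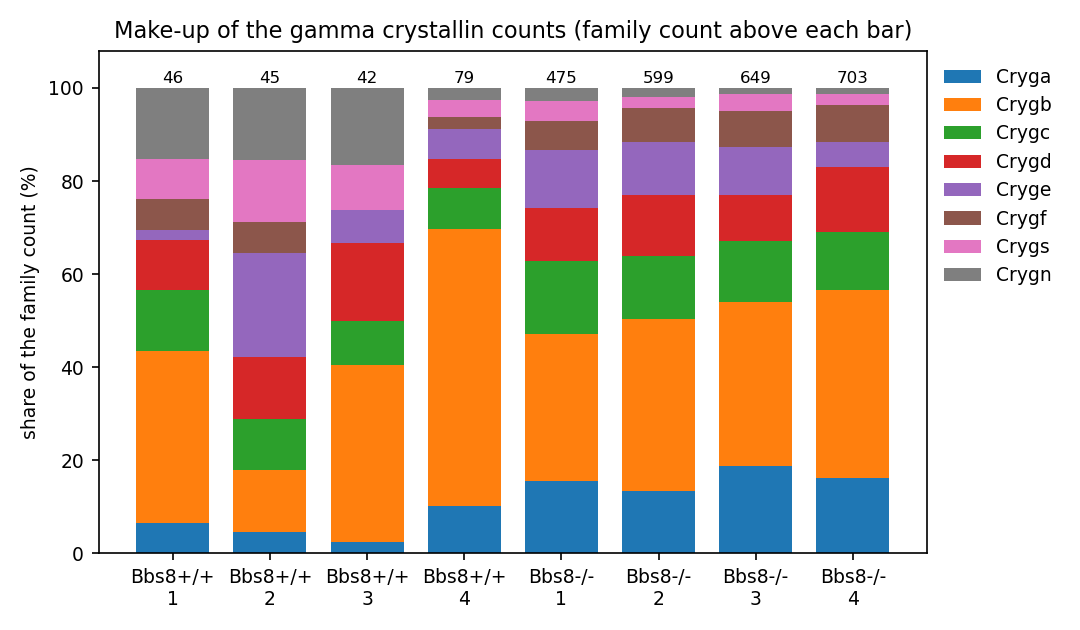
Stacked bars of each member's share (%) of the gamma crystallin count in each library, with the family count printed above each bar. In the Bbs8-/- bars Crygb ranges from 31.6 to 40.4% and Cryge from 5.26 to 12.6%, and the Bbs8+/+ bars, resting on 42 to 79 counts, carry more Crygn in 3 of 4 libraries.

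In all 4 Bbs8-/- libraries Crygb was first, Crygs seventh and Crygn last. Cryga and Crygc exchanged places, Cryga being above Crygc in 2 libraries, below it in 1 and equal to it in 1 at 74 counts each, so these neighbours did not differ beyond their spread. Crygd was next to Crygc or Cryge in each library, and Cryge was above Crygf in 3 of 4. In Bbs8+/+ Crygb was first in 3 libraries and Cryge in 1, and Crygn was among the upper 3 in 3 libraries, level with Crygd at 7 counts in 1 of them. In Bbs8+/+ library 4 Crygn was last together with Crygf, at 2 counts each.

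The spread among the Bbs8-/- libraries is given beside what counting error alone would give, as a description. The coefficient of variation of CPM was 13.3% for Cryga, 15.8% for Crygb, 20.0% for Crygd and 29.8% for Cryge, against 10.2%, 6.75%, 11.6% and 13.0% from counting error. For Crygf, Crygs and Crygn it was 15.9%, 24.0% and 32.1%, beside 15.0%, 22.8% and 30.4% from their low counts.

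Genes next to the crystallin loci were examined as a check of the surrounding chromosome. Among the 5 nearest protein-coding genes on each side of the cluster, of Crygf, of Crygs and of Crygn, 35 different genes were in the files and 27 were tested. Only Tra2b, a splicing factor gene 539198 bases from Crygs, was past FDR 0.05 (3.7% of the tested neighbours, against 1.1% of all genes), with 114 ± 7.24 CPM in the controls and 153 ± 9.13 CPM in the knockouts, a log2 fold change of 0.43 (SE 0.09, adjusted p = 0.001031, edgeR quasi-likelihood test). None was lower, and the median log2 fold change was 0.08 beside a median of -0.004 over all tested genes.

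Between the cluster and Crygf lie Idh1, the cytosolic isocitrate dehydrogenase, and Pikfyve, a phosphoinositide kinase. Idh1 stood at 48.4 ± 6.45 CPM in the controls and 42.1 ± 8.04 CPM in the knockouts, and Pikfyve at 64.8 ± 9.55 and 60.6 ± 7.12 CPM, both overlapping between genotypes. Nub1, a gene near Crygn whose product lowers the level of the ubiquitin-like protein NEDD8, had 73.2 ± 5.71 and 79.9 ± 7.13 CPM, again with overlap. Tbccd1, only 1637 bases from Crygs, had 15.7 ± 1.52 and 18.5 ± 3.49 CPM, and Acadl, a mitochondrial acyl-CoA dehydrogenase beyond Crygf and the most abundant neighbour, 179 ± 18.4 and 169 ± 5.68 CPM, also with overlap.

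Alpha and beta crystallins, the other structural proteins of the lens, were set beside the family. Of 8 genes on the list, all were tested, 6 were higher in Bbs8-/- at FDR 0.05 and none lower, beside 1.1% of all tested genes, with a median log2 fold change of 2.74. Among the 6, Cryba4 and Crybb1 passed the filter on low counts only through the Bbs8-/- libraries, since fewer than 4 controls reached 1 CPM, and nothing is read from their calls. DESeq2's filter on low means left 3 of the 8 with an adjusted p, of which 2 were called higher. The list was drawn up with earlier results of these libraries known, and it is no independent evidence of a direction. The members past the threshold were Cryaa, Cryba1, Cryba2, Cryba4, Crybb1 and Crybb3.

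Cryaa, the alpha crystallin that acts as a chaperone in the lens, had 8.42 ± 0.84 CPM in the controls and 67.6 ± 12.6 CPM in the knockouts, a log2 fold change of 3.00 (SE 0.19). Cryba1 had 8.41 ± 0.74 and 56.8 ± 11.0 CPM (log2 fold change 2.74, SE 0.20), and Crybb1 went from 1.20 ± 0.46 to 16.9 ± 2.02 CPM (3.74, SE 0.42). Cryba2, Cryba4 and Crybb3 had log2 fold changes of 2.75, 2.97 and 1.44. The value for Cryba4 rests on Bbs8+/+ library 3, without which it was 5.40.

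Cryab, the alpha crystallin that is also active in muscle, heart, brain and many other tissues, did not pass the test and was the most abundant crystallin. It had 157, 157, 151 and 182 CPM in the controls and 140, 139, 155 and 148 CPM in the knockouts, on average 162 ± 13.6 and 146 ± 7.37 CPM. Its log2 fold change was -0.15 (SE 0.09, adjusted p = 0.484, edgeR quasi-likelihood test). Crybb2 was near the floor, with at most 8 counts in a library.

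Without Cryab, the alpha and beta crystallins summed to 29.7 ± 5.76 CPM in the controls and 186 ± 14.2 CPM in the knockouts, 6.26 times as much. The ratio of gamma to these alpha and beta crystallins was 0.84, 0.66, 0.53 and 0.88 in the Bbs8+/+ libraries and 1.53, 1.54, 1.62 and 1.95 in the Bbs8-/- libraries. Without Cryab, the gamma family was thus the smaller of the groups in every control and the larger in every knockout. With Cryab, the alpha and beta sum was 191 ± 14.8 CPM in the controls and 331 ± 11.7 CPM in the knockouts. That is 1.73 times as much. Against this full sum the gamma family was the larger only in Bbs8-/- library 4, at 328 against 316 CPM. In Bbs8-/- libraries 1 to 3 it was the smaller, at 288, 313 and 298 against 329, 342 and 339 CPM. These comparisons use the same contrast on which the family was chosen and were given no test.

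Lens fibre genes that are not crystallins were set beside the family next. Of 14 on the list, 6 were tested and none passed FDR 0.05 in either direction, beside 1.1% higher and 1.14% lower of all tested genes, so that a count of 0 among 6 is near the background. They had a smallest adjusted p of 0.1015 (Bfsp1, edgeR quasi-likelihood test) and a median log2 fold change of 0.30. Gje1 and Lctl were at 0 in all 8 libraries, and Gja3, Lgsn, Dnase2b, Birc7 and Grifin had at most 5 counts in any library. Each 0 allows up to 3 counts, or 1.04 to 1.83 CPM depending on the library.

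Mip, the major intrinsic protein and water channel of the fibre cell membrane, had 25, 24, 17 and 17 counts in Bbs8+/+ and 22, 14, 17 and 29 counts in Bbs8-/-. Lim2, another fibre membrane protein, had 14, 16, 21 and 8 against 10, 18, 14 and 22 counts. The beaded filament genes Bfsp1 and Bfsp2, which encode the lens-specific intermediate filament, had 30, 9, 14 and 19 against 16, 32, 40 and 24 counts, and 16, 20, 16 and 24 against 14, 18, 22 and 21 counts. The genotypes overlapped in CPM for Mip, Lim2 and Bfsp1, and for Bfsp2 all knockouts lay slightly above all controls, at 9.45 ± 0.70 against 7.65 ± 0.63 CPM.

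Of these, Bfsp1 came nearest to the threshold, with a log2 fold change of 0.93 (SE 0.31), and without Bbs8+/+ library 1 it was 1.33 with an adjusted p of 0.01437. The other tested genes of the list were Caprin2 and Tdrd7, which bind RNA and are expressed in many tissues. Caprin2 had 17.9 ± 1.05 CPM in the controls and 19.7 ± 4.25 CPM in the knockouts, and Tdrd7 12.1 ± 1.35 and 8.16 ± 2.19 CPM, the latter lower in every knockout without passing the test (adjusted p = 0.4262, edgeR quasi-likelihood test).

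**Figure D4:**
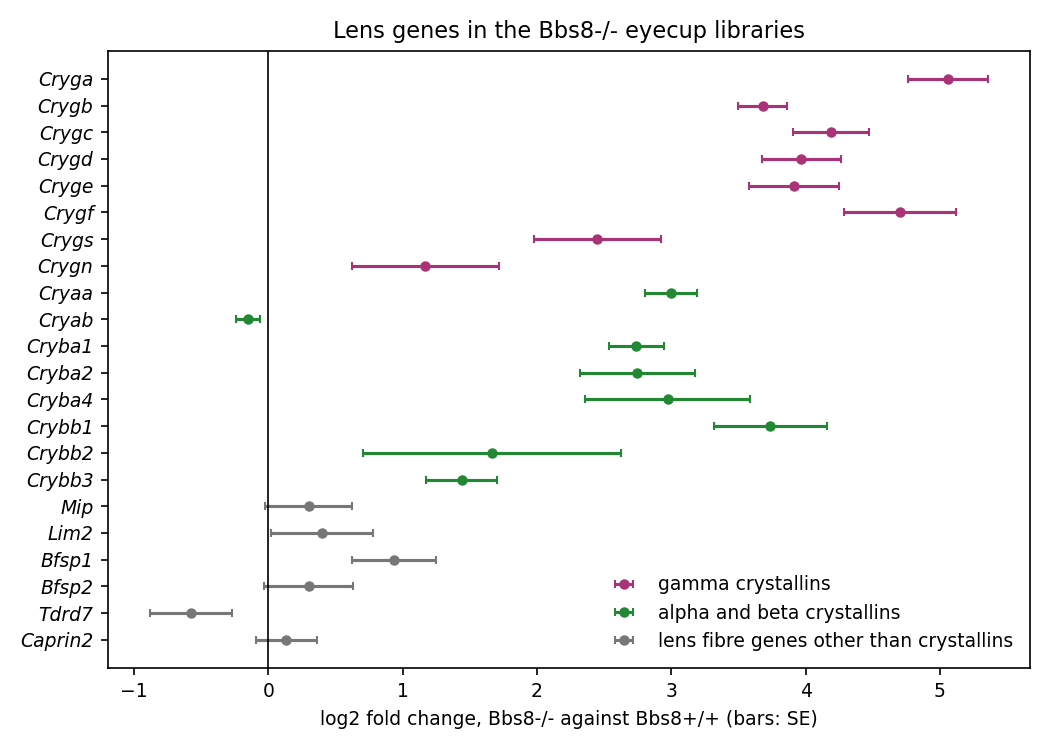
Log2 fold change of Bbs8-/- against Bbs8+/+ (horizontal axis, bars show the SE of the edgeR fit) for the 8 gamma crystallins, the 8 alpha and beta crystallins and the 6 tested lens fibre genes other than crystallins. Gamma crystallins reach 5.06, the alpha and beta crystallins other than Cryab lie between 1.44 and 3.74, and the lens fibre genes lie between -0.57 and 0.93.

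As a sum, the 14 lens fibre genes stood at 61.2 ± 5.06 CPM in the controls and 71.2 ± 4.21 CPM in the knockouts, a ratio of 1.16 with the lowest knockout just above the highest control, at 67.3 and 67.2 CPM. The gamma crystallin sum divided by this sum was 0.29, 0.30, 0.31 and 0.50 in the Bbs8+/+ libraries and 4.28, 4.13, 4.38 and 4.45 in the Bbs8-/- libraries. Caprin2 and Tdrd7, which are not lens-restricted, make up much of the list's sum. The lens-restricted genes Mip, Lim2, Bfsp1 and Bfsp2, a subset chosen after their values were seen, were 1.23, 1.29, 1.89 and 1.23 times as high in Bbs8-/-, and their sum was 29.8 ± 5.61 CPM in the controls and 42.0 ± 3.08 CPM in the knockouts, 1.41 times as high and without overlap. The gamma crystallin sum divided by the sum of these 4 was 0.74 ± 0.28 in Bbs8+/+ and 7.32 ± 0.28 in Bbs8-/-. Whether lens tissue in the eyecups had a part in the crystallin counts was not tested.

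**Figure D5:**
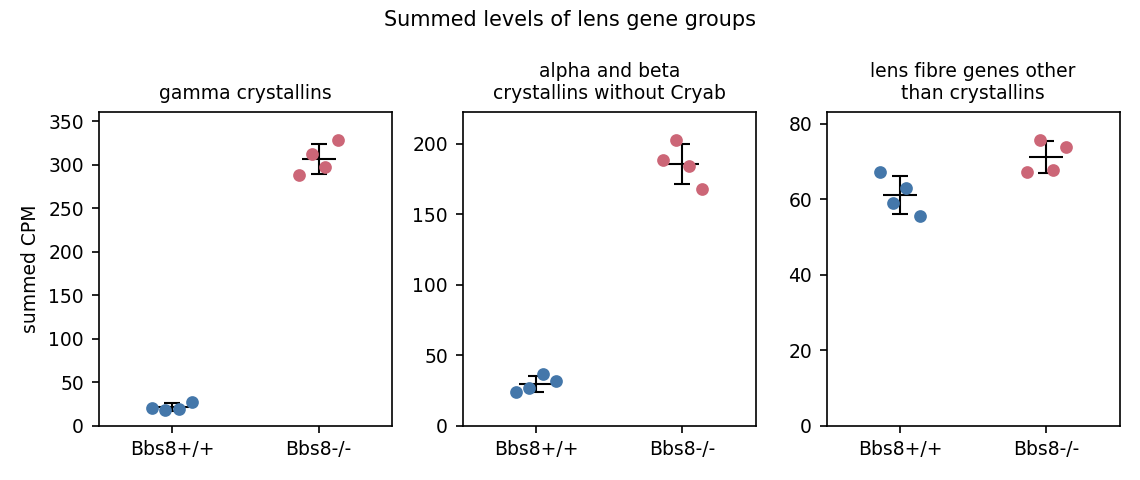
Summed CPM of the gamma crystallins, of the alpha and beta crystallins without Cryab, and of the lens fibre genes other than crystallins in each library (points), with mean and SD (black) per genotype and each vertical axis starting at 0. The first panel goes from 21.2 to 307 CPM and the second from 29.7 to 186 CPM, while the third stays between 55.5 and 75.7 CPM.

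Transcription factors that control crystallin genes during lens development were listed as well. Of 10 on the list, 6 were tested (Pax6, Six3, Sox2, Maf, Prox1 and Hsf4) and none passed FDR 0.05, again near the 1.1% and 1.14% of all tested genes, with a median log2 fold change of 0.01. Maf, a regulator of fibre cell crystallins, had 209 ± 6.12 CPM in the controls and 181 ± 23.3 CPM in the knockouts, and Six3 545 ± 43.5 and 528 ± 35.1 CPM. Prox1, which is needed for fibre cell elongation, had 7.72 ± 3.19 and 6.78 ± 2.08 CPM, and Pax6 9.90 ± 3.46 and 10.5 ± 4.50 CPM. Foxe3, a factor of the lens epithelium, was at 0 in all 8 libraries. Sox1, Pitx3 and Gata3 had at most 6 counts and were not tested. Which cells of the eyecup the counts of these factors came from was not tested, so their median is not a measure of lens cells.

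Markers of other tissues that the dissection could carry over were examined beside the family. Of 6 keratins of surface epithelia, 3 (Krt6a, Krt13 and Krt15) were tested. All 3 passed the filter on low counts only through the Bbs8+/+ libraries, with at most 0.61 CPM in any knockout, so that nothing is read from their being past FDR 0.05 in the lower direction. The 6 summed to 14.7 ± 2.91 CPM in the controls and 0.28 ± 0.33 CPM in the knockouts, with 30 to 40 counts per control and 0 to 1 per knockout. Krt14 was at 0 in all libraries. Krt12, a keratin of the corneal epithelium, had at most 5 counts. The sum of 10 photoreceptor genes was 433 ± 22.9 CPM in the controls and 330 ± 28.4 CPM in the knockouts, without overlap. Of these 10, 2 were lower at FDR 0.05 (20% against 1.14% of all genes) and 8 did not pass, with knockout levels of the 8 from 0.71 to 1.42 times the control level. Without Bbs8-/- library 2 or 3, 1 more of the 10, Sag, was past FDR 0.05 in the lower direction.

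Of 12 RPE genes, 1 (Otx2) was higher and 3 (Tyrp1, Pmel and Mitf) were lower, which is 8.33% and 25% of the list beside 1.1% and 1.14% of all genes. Otx2, a transcription factor of RPE and photoreceptors, was 1.39 times as high in Bbs8-/-, and the pigment genes Tyrp1 and Pmel and their regulator Mitf were at 0.68, 0.84 and 0.78 of the control level. The list had 4 genes lower without Bbs8-/- library 2, and 4 lower and 2 higher without Bbs8+/+ library 3. The part of these tissue differences in the crystallin result was not tested.

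Genes outside the family with the most similar profile over the 8 libraries were found by the root mean square distance between log2 CPM profiles, each centred on its own mean, among 9029 genes with a mean of at least 10 CPM. The 5 nearest to the family sum were Cryaa (distance 0.53), Cryba1 (0.64), Tpsab1 (1.17), Crybb3 (1.24) and Uty (1.27). Tpsab1, a tryptase of mast cells, had 8.70 ± 3.80 CPM in the controls and 27.6 ± 1.12 CPM in the knockouts, and Uty, a Y-linked gene, 9.94 ± 1.38 and 25.3 ± 1.57 CPM. Among the members themselves, Crygc was nearest to the family sum (0.18) and Crygn farthest (1.53). With 8 libraries in 2 groups, any gene with a large difference between the genotypes comes near such a profile, and the distances are a description.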

How the data were processed

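The authors trimmed single-end QuantSeq 3′ reads, aligned them with STAR to mm10 and counted uniquely placed reads per gene with htseq-count; the deposited values are raw counts per Ensembl gene identifier, 1 table per library. Lines for reads without a gene, ambiguous reads and reads with several places were left out of library totals. Reads without a gene were 42.2% to 43.4% of uniquely placed reads in Bbs8+/+ and 44.1% to 44.4% in Bbs8-/-, without overlap. Ambiguous reads were 0.309% to 0.323%. The part of this difference in the results was not tested. Symbols came from GENCODE M21 for 31011 of 31053 identifiers. The genotypes were compared with edgeR 4.0.16 in R 4.3.3 with TMM scaling, genes of at least 1 CPM in at least 4 libraries, the quasi-likelihood F test, a prior count of 0.125 and Benjamini-Hochberg adjustment at FDR 0.05; the script was tested on simulated data. CPM values are TMM-scaled. SE is the absolute log2 fold change divided by the square root of F. Log2 profiles used a pseudocount of 0.5. The members and gene lists were chosen with earlier results of these data known. Genes were named by rule: all members, genes of the lens and flanking lists past FDR 0.05 plus the 4 most abundant of each list, and the 5 nearest profiles; Idh1, Gm28845 and Tbccd1 were named for their position, and other markers after their values were seen. Deviations of same-numbered libraries from their group means correlated between -0.028 and 0.020 over 9035 genes, so replicate numbers were not used as pairs. No 2 libraries were identical. DESeq2 1.42.0 served as an alternative. Some single genes of the marker lists are not reported here.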

Additional observations from a re-analysis of the deposited data

Results flagged for a closer look

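In 3 of 82 groups of 4 libraries, the highest or lowest library stood apart from the other 3 by Dixon's gap test, where chance gives about 4.1. All 3 concern Bbs8+/+ library 4. Its Crygn share of the family count was 2.53%, against 15.2 to 16.7% in the other controls. Its summed Crygs and Crygn level was 1.75 CPM, against 4.74 to 5.14 CPM. Its ratio of gamma crystallins to lens fibre genes was 0.497, against 0.295 to 0.311, and still far from the lowest knockout at 4.13.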

How the results depend on the processing

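Over the 16 alternatives that gave fold changes of the gamma crystallins, 8 of which left out 1 library, none of 127 values reversed and 123 moved by less than the spread between replicates. The 4 others came from a prior count of 2, which shrinks genes with few control counts (Crygc 3.77, Crygd 3.56, Crygf 3.77 and Crygs 2.01 on the log2 scale). That setting lowered the remaining members too, to 4.43 for Cryga, 3.56 for Crygb, 3.445 for Cryge and 0.94 for Crygn. These stayed inside their own spread between replicates, which was 0.76 for Cryga and 0.92 for Cryge. Crygn has no value under filterByExpr, which dropped it. The log2 ratio of the family sum ranged from 3.78 to 4.01. Counts of called genes ranged from 116 to 186 higher and 107 to 172 lower, and with the replicate block they were 134 and 129. The block changed no count of calls among the alpha and beta crystallins, the lens fibre genes, the lens transcription factors or the flanking genes. DESeq2's filter on low means left 4 of 8 gamma crystallins with an adjusted p, all 4 called higher (edgeR called 7), and 3 of 8 alpha and beta crystallins, 2 called higher. Leaving out 1 library gave 0 to 1 lens fibre genes called higher, with medians between 0.14 (without Bbs8+/+ 4) and 0.43 (without Bbs8-/- 3). The median of the lens transcription factors, near 0 throughout, was negative with library totals only (-0.00049), the filterByExpr filter (-0.10) and thinning to the smallest library (-0.076), and between -0.11 and 0.18 when 1 library was dropped. The cause was not tested. Depth limits the controls, where members had 0 to 47 counts per library.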
